A study of Mus musculus with 4 samples.

Results

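The stromal immunosuppressive factors are 10 mouse genes, Il10, Hgf, Tnfaip6, Lgals1, Ptgs2, Ptges, Nos2, Arg1, Ido1 and Hmox1, through whose products marrow stromal cells and macrophages are known to restrain T cells. They were taken by symbol from the 54532 genes of a deposited RNA sequencing table, and all 10 are in it. The list was chosen with earlier results of these data known. The 4 libraries were made from cultured cells labelled MSCs, obtained by digesting whole bone marrow of CB6F1 mice, an F1 hybrid laboratory strain. For 2 libraries the cells received R, dosed at 0.5 µM if the unit in the labels, um, means micromolar. For the other 2, called vehicle, they received the solvent DMSO. All sample titles carry the term aGVHD, and the labels say neither what R is nor how replicates arose. Each p-value rests on the spread between the 2 libraries within each group, pooled in part with the spread of other genes. Part or all of that spread may therefore be technical.

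These factors act by several routes. Interleukin 10, hepatocyte growth factor, the hyaluronan-binding protein TSG-6 (encoded by Tnfaip6) and galectin 1 (Lgals1) are secreted or released and signal to or bind other cells. Ptgs2 and Ptges encode the inducible enzymes that make prostaglandin E2, a lipid that dampens T cell activation through its receptors. Nos2, Arg1 and Ido1 encode enzymes that use up arginine or tryptophan, on which T cells depend, and make nitric oxide, urea cycle products or kynurenine. Hmox1 encodes heme oxygenase 1, which breaks down heme to carbon monoxide, iron and biliverdin. In mouse stromal cells inducible nitric oxide synthase is regarded as the main arginine or tryptophan enzyme of this kind, in human stromal cells IDO1.

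The cells were not stromal alone by their transcripts. FPKM values are reads scaled to gene length and library size. Summed over 15 myeloid markers (macrophage and monocyte), they came to 11980 and 9668 in R and 19220 and 16830 in vehicle. The lysozyme gene Lyz2 alone held 8891 and 7061 of this in R and 14570 and 12540 in vehicle. Lyz2 was not called (limma, Benjamini-Hochberg adjusted p = 0.321). Of 14 tested macrophage markers limma called 0 higher and 3 lower, Itgam, Fcgr1 and Ctss. For 15 mesenchymal stromal markers the sum was 2195 and 2266 FPKM in R and 1845 and 1824 FPKM in vehicle. Among them the type I collagen gene Col1a1 was at 852 and 795 FPKM in R and 532 and 525.5 FPKM in vehicle and was not called. Col1a2, the other type I collagen gene, was at 414 and 434.5 FPKM in R and 282 and 291 FPKM in vehicle, also not called. Cxcl12 overlapped between the groups, at 461.5 and 514 FPKM in R and 517 and 493 FPKM in vehicle. Of the tested stromal markers 9 had log2 fold changes above 0 and 4 below 0, with a median of 0.11. Limma called 0 of the 13 tested stromal markers higher and 2 lower, Ly6a (log2 fold change -1.71) and Dcn (-1.01). Over all tested genes it called 0.345% higher and 1.37% lower. All 15 markers of either kind were above 0 in each library, but the stromal markers Lepr and Thy1 stayed below 0.7 FPKM. Of 10 T and NK cell markers 7 were at 0 in all 4 libraries, including Cd3e, Cd3d and Cd3g. From the same list, Cd4 was at 6.35 and 6.57 FPKM in R and 8.14 and 8.13 FPKM in vehicle. Trac and Lck had a few reads in each library. Of 8 neutrophil markers 5 were at 0 in all 4 libraries, including Ly6g and Mpo. Camp, from that list, was at 1.85 and 1.24 FPKM in R and 1.12 and 1.25 FPKM in vehicle. In bulk RNA, fewer cells of a type and less RNA per cell cannot be told apart.

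The R libraries differed from each other by gene length, and the tested members were set against this trend. On the log2(FPKM + 1) scale, R replicate 2 minus R replicate 1 had a median of -0.313 over 1103 tested genes under 1 kb and of 0.129 over 6235 tested genes over 4 kb. The same difference between vehicle replicates 2 and 1 had medians of -0.127 and 0.0392. Lgals1, with 903 bases of union exon length, differed by -0.655 between the R libraries, Tnfaip6, with 1710 bases, by -0.587, and Hgf, with 7186 bases, by 0.597. These 3 and Ptgs2, at 0.263, lay outside the middle 50% of tested genes of like length, and Il10, Hmox1 and Ptges lay inside it. By definition the other 50% of such genes also lie outside it.

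**Figure D1:**
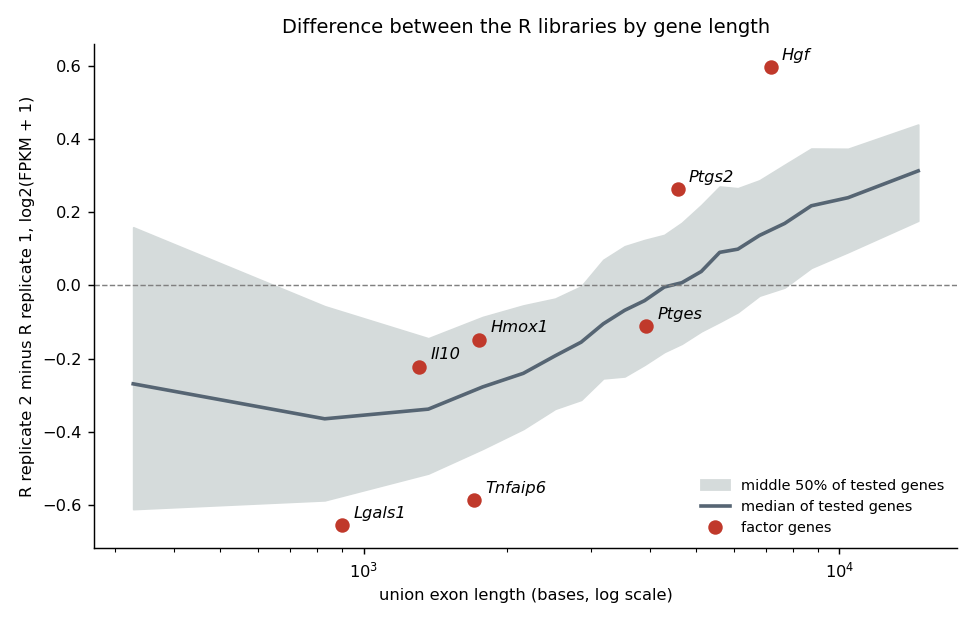
Difference between R replicate 2 and R replicate 1 in log2(FPKM + 1) against union exon length (log scale), with the median and the middle 50% of tested genes in length bins and the 7 tested members as points. Lgals1 at -0.655 and Tnfaip6 at -0.587 lie below the band of genes of their length, and Hgf at 0.597 and Ptgs2 at 0.263 lie above it.

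R was compared with vehicle to ask which transcripts differ between treated cells and cells given the solvent alone. Of the 10 members, 7 reached the mean of 1 FPKM at which genes were tested, and 3, Nos2, Arg1 and Ido1, were at or near the limit of detection in both groups. Limma called 0 of the 7 members at a Benjamini-Hochberg adjusted p under 0.05, where it called 1.72% of all 12176 tested genes, 0.345% as higher in R and 1.37% as lower. At an unadjusted p under 0.05 there were 2, Il10 and Ptgs2, against 16% of all tested genes. Voom, limma's model for reads, run on whole reads recovered from the table, called 1, Il10, as lower, against 2.71% of 11564 genes in either direction and 2.03% as lower. A fit with the gene length trend removed also called Il10 alone, against 4.56% of genes and 2.84% as lower, and a fit on TPM, which rescales each library to the same total, called 0 members, against 1.49% of genes and 1.02% as lower. The R and vehicle values of 4 members did not overlap, where 47.9% of all tested genes did not. Of the tested members 3 had log2 fold changes below 0 and 4 above 0, with a median of 0.14. That median is the value of Tnfaip6, which passed the filter only through R replicate 1. Over all tested genes 6087 were below 0 and 6089 above 0, with a median of 8.3e-05.

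Per unit of gene length the members covered a wide range. In both groups Lgals1 was the most abundant, followed by Hmox1, Il10, Hgf, Ptges, Ptgs2 and Tnfaip6. Hgf and Ptges overlapped each other in R as in vehicle, and Ptges and Ptgs2 overlapped in vehicle but not in R. Nos2, Ido1 and Arg1 lay at the bottom in each group and could not be ordered. By mean level Lgals1 stood at percentile 99.9 of tested genes, Hmox1 at 98.2, Il10 at 74.2 and Tnfaip6 at 1.74.

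**Figure D2:**
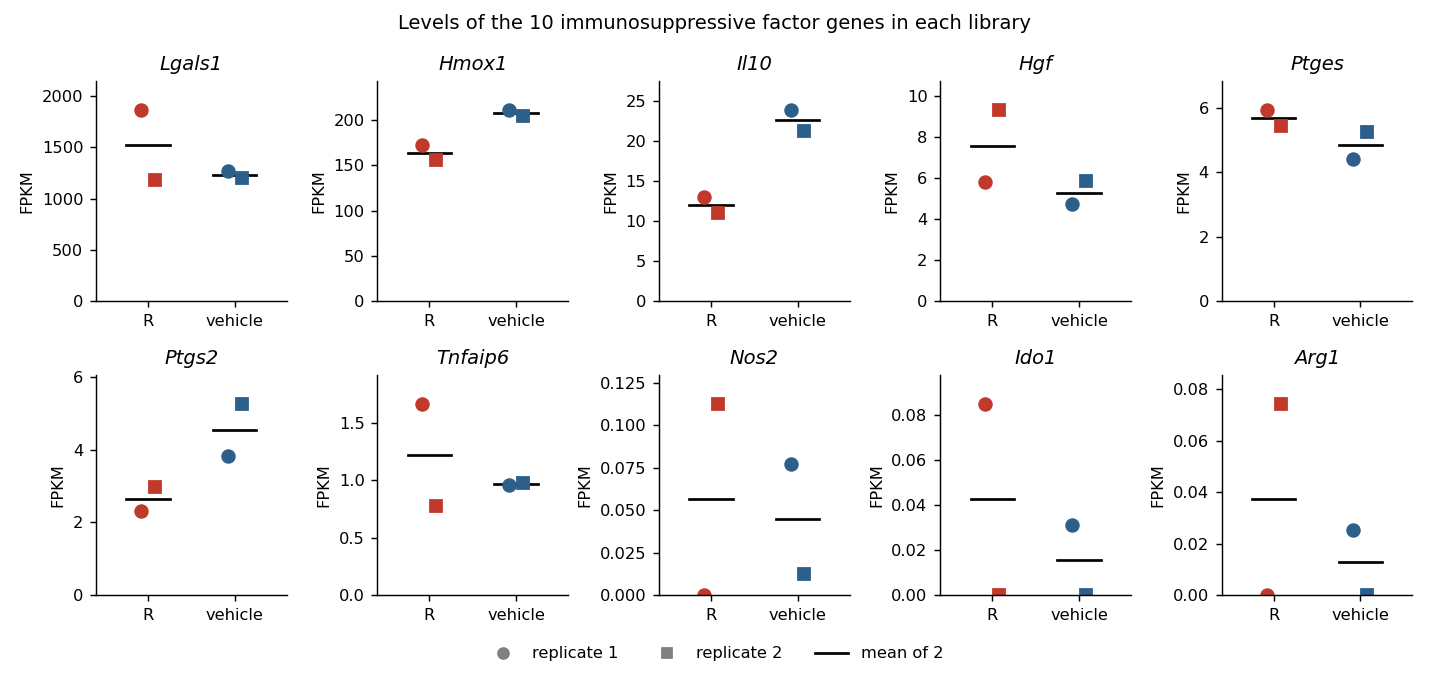
FPKM of each of the 10 members (vertical axes from 0, a scale of its own per gene) in the R libraries (left, red) and the vehicle libraries (right, blue), with circles for replicate 1, squares for replicate 2 and bars for the mean. Il10, Ptgs2 and Hmox1 have both R values below both vehicle values, as do 25.2% of all tested genes. Nos2, Ido1 and Arg1 stay at or below 0.113 FPKM.

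Il10 encodes interleukin 10, a cytokine made mainly by macrophages and lymphocytes that restrains antigen presentation and T cell help. In R it was at 13.0 and 11.01 FPKM (329 and 261 reads) and in vehicle at 23.9 and 21.2 FPKM (552 and 499 reads). Both R values lay below both vehicle values, a pattern found for 25.2% of all tested genes. Mean levels were 12.0 ± 1.41 in R and 22.6 ± 1.88 in vehicle (FPKM, SD, n = 2 each), so the R mean was 0.532 of the vehicle mean. The log2 fold change was -0.86 (SE 0.139, 95% interval -1.20 to -0.52), and limma's Benjamini-Hochberg adjusted p = 0.0516 missed the threshold.

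The side of the threshold on which Il10 fell depended on the processing. With all 4 libraries and no replicate block, it passed with a stricter filter on low values, quantile normalization, voom and the removal of the gene length trend. It did not pass with another pseudocount, without a filter, on TPM or without a variance trend. Over these settings limma's adjusted p ran between 0.0156 with the length trend removed and 0.188 without a filter. Fits without 1 library leave 1 in a group, and only their log2 fold changes are used here. The log2 fold change was below 0 in all 12 other settings without a replicate block, from -0.97 to -0.75.

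The part of macrophage transcripts in the Il10 values was not tested. Of 14 tested macrophage markers 13 had log2 fold changes below 0, and over the 14 these ran from -1.90 to 0.10 with a median of -0.69, 4 of them below that of Il10. Set against Lyz2, the lysozyme gene of myeloid cells, Il10 was at 1.46 and 1.56 FPKM per 1000 FPKM in R and 1.64 and 1.69 in vehicle. Set against Cd68, a lysosomal protein of macrophages, it was at 26.5 and 27.1 per 1000 in R and 31.7 and 30.7 in vehicle. Set against Csf1r, the receptor for macrophage colony-stimulating factor, it was at 30.1 and 26.3 per 1000 in R and 46.0 and 42.3 in vehicle. The direction depended on the marker. Over the 15 macrophage markers, the ratio of Il10 was lower in both R libraries for 9, higher in both for 3 (Fcgr1, Ctss and Ccr2) and overlapped for 3. Against Ctss, the gene of cathepsin S, Il10 was at 37.9 and 38.0 per 1000 in R and 29.4 and 28.3 in vehicle. These ratios were chosen with the values known and carry no test.

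The genes around interleukin 10 gave 0 limma calls of 8 tested. At an unadjusted p under 0.05 there were 4, all lower in R, against 16% of all tested genes. Voom called 1, Stat3, against 2.71% of all genes it tested. The list had 7 log2 fold changes below 0 and a median of -0.26. The smallest p belonged to Stat3, the transcription factor through which the interleukin 10 receptor signals. Stat3 was at 14.2 and 15.6 FPKM in R and 22.9 and 23.6 FPKM in vehicle, with a log2 fold change of -0.61 (limma, Benjamini-Hochberg adjusted p = 0.0794).

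Ptgs2 encodes cyclooxygenase 2, the inducible enzyme that starts prostaglandin synthesis. It was at 2.31 and 2.97 FPKM in R (204 and 246 reads) and at 3.82 and 5.27 FPKM in vehicle (309 and 433 reads). Both R values lay below both vehicle values, as for 25.2% of all tested genes. With a log2 fold change of -0.60 (SE 0.182, 95% interval -1.05 to -0.15), Ptgs2 was not called (limma, Benjamini-Hochberg adjusted p = 0.193). Nor was it in any other setting that tested it with all 4 libraries and no replicate block. There limma's adjusted p ran between 0.122 with voom and 0.4285 without a filter. In all 11 other settings without a replicate block the log2 fold change was below 0, from -0.79 to -0.41.

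Ptges encodes the inducible prostaglandin E synthase that works downstream of cyclooxygenase 2. Its level was 5.94 and 5.43 FPKM in R (451 and 386 reads) and 4.43 and 5.25 FPKM in vehicle (307 and 370 reads). The R values lay above the vehicle values, the nearest being 5.43 in R and 5.25 in vehicle, a separation upward that 22.7% of all tested genes had. Ptges had a log2 fold change of 0.20 (SE 0.134, 95% interval -0.13 to 0.53; limma, Benjamini-Hochberg adjusted p = 0.542). In FPKM, Ptges stood to Ptgs2 at 2.58 and 1.83 in R and at 1.16 and 0.996 in vehicle. The ratio was higher in both R libraries; it was computed with the values known and was not tested.

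Beyond the pair, the prostaglandin E2 list had 1 gene that fell and 0 that rose of 9 tested, with a median log2 fold change of -0.11. Over all tested genes limma called 1.37% lower and 0.345% higher. The gene that fell was Ptger4, which encodes the EP4 receptor for prostaglandin E2. It was at 3.68 and 4.09 FPKM in R and 7.21 and 7.31 FPKM in vehicle, with a log2 fold change of -0.76 (SE 0.121; limma, Benjamini-Hochberg adjusted p = 0.0499). Its call lay at the threshold. With all 4 libraries and no replicate block, the call was lost on the TPM scale, without a filter and without a variance trend. The log2 fold change was -0.77 without vehicle replicate 1 and -0.75 without vehicle replicate 2. The constitutive cyclooxygenase gene Ptgs1 was at 13.4 and 14.5 FPKM in R and 16.4 and 16.6 FPKM in vehicle. Per unit of length it was thus more abundant than Ptgs2 in every library.

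A promoter window is shown for Ptgs2, since it had the second smallest p among the members and its window holds one of the motifs searched. RefSeq promoter windows of build GRCm38.p6, from 250 bases before to 50 bases after a start site, matched 4 of the 10 members by symbol, Hgf (with 2 windows), Ptges, Ptgs2 and Tnfaip6. Capitals mark a match to the C/EBP motif TTGCNNAA in the window chr1:150099781-150100080, plus strand, centred at -65 from the start site.
Ptgs2: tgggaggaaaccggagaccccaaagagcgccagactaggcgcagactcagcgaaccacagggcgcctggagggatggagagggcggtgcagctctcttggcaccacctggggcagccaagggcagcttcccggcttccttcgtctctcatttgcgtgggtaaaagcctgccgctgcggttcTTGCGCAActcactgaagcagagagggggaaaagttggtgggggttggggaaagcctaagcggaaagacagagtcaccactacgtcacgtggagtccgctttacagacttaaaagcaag
The same motif, on either strand, was in 10.8% of all 32851 windows of that length. The GAS motif TTCNNNGAA, a binding sequence of STAT proteins, was in 8.30% of all windows and, among the 5 windows of members, in that of Tnfaip6, here with 29 bases around the match, chr2:52037894-52037922, plus strand.
Tnfaip6: acgaacttgtTTCTGAGAAagagacttta
The antioxidant response motif TGACNNNGC was in 12.4% of all windows and in 1 of those of Hgf. The ISRE motif GAAANNGAA, the kappaB motif GGNNTTTCC and the CRE motif TGACGTCA were in 8.56, 5.82 and 1.79% of all windows and in 0 of the 5. A match describes the letters of a window and not a site in use.

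Hmox1 was at 173 and 156 FPKM in R (5832 and 4930 reads) and at 211 and 205 FPKM in vehicle (6530 and 6439 reads). Both R values lay below both vehicle values, as for 25.2% of all tested genes. Mean levels of Hmox1 were 164 ± 12.0 in R and 208 ± 4.58 in vehicle (FPKM, SD, n = 2 each). Its log2 fold change of -0.34 (SE 0.145, 95% interval -0.70 to 0.02) was not called (limma, Benjamini-Hochberg adjusted p = 0.333). Macrophages express Hmox1 strongly. Of 14 tested markers of that cell type 13 had log2 fold changes below 0 and 1, Cd163, above 0. Limma called 3 of the 14 lower and 0 higher, where it called 1.37% of all tested genes lower. Against Csf1r, Hmox1 was at 399 and 372 FPKM per 1000 in R and 407 and 409 in vehicle, and against Lyz2 at 19.4 and 22.04 in R and 14.5 and 16.3 in vehicle, so the direction depended on the marker. Over the 15 macrophage markers, the ratio of Hmox1 was higher in both R libraries for 9, lower in both for 2 and overlapped for 4. These ratios carry no test, and the part of macrophage transcripts in the Hmox1 values was not tested.

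The list of heme breakdown genes and targets of NRF2, the factor that activates Hmox1 in oxidative stress, had 0 limma calls of 14 tested. At an unadjusted p under 0.05 there were 2, against 16% of all tested genes, and voom called 0 of 13. Of these 14, 7 had log2 fold changes below 0 and 7 above, with a median of 0.01. The smallest p belonged to Nfe2l2, which encodes NRF2. It was at 57.7 and 61.1 FPKM in R and 94.0 and 84.0 FPKM in vehicle, with a log2 fold change of -0.57 (limma, Benjamini-Hochberg adjusted p = 0.117). Nqo1 and Gclm, classical NRF2 targets, overlapped between the groups, Nqo1 at 5.74 and 7.05 FPKM in R and 5.77 and 5.38 FPKM in vehicle.

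Lgals1 encodes galectin 1, a lectin that binds glycans on activated T cells. It was at 1864 and 1183 FPKM in R (32488 and 19331 reads) and at 1271 and 1197 FPKM in vehicle (20237 and 19400 reads). R replicate 1 lay above both vehicle libraries and R replicate 2 below both. The log2 fold change was 0.27 (SE 0.274, 95% interval -0.41 to 0.94; limma, Benjamini-Hochberg adjusted p = 0.698), and it was -0.06 without R replicate 1 and 0.60 without R replicate 2. With the gene length trend removed, an alternative chosen after the data were seen, the R values were 10.7 and 10.4 and the vehicle values 10.2 and 10.3 on the log2(FPKM + 1) scale. On that scale the groups no longer overlapped, and the change of 0.32 was not called either (limma, adjusted p = 0.256). Its annotated pseudogenes Lgals1-ps1 and Lgals1-ps2 were at 0 in each library.

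The list of other galectins and their partners held 8 genes, of which 4 were tested. These 4 lay below 0, at a median log2 fold change of -0.73. No test set them against Lgals1. Limma called 1 of them lower, where it called 1.37% of all tested genes lower. That gene was Lgals3bp, which encodes a secreted glycoprotein that binds galectin 3, at 99.4 and 90.7 FPKM in R and 239 and 226 FPKM in vehicle. Its log2 fold change was -1.28 (SE 0.142, limma, Benjamini-Hochberg adjusted p = 0.0153). Among the settings that kept all 4 libraries, the call was lost only in the fit without a filter. Lgals9 encodes galectin 9, a ligand of the T cell receptor TIM-3. It was at 46.5 and 39.1 FPKM in R and 83.7 and 75.7 FPKM in vehicle, with a log2 fold change of -0.89 that did not pass (limma, Benjamini-Hochberg adjusted p = 0.0532), though voom called it. It was chosen for mention after its values were seen. Lgals3, the galectin typical of macrophages, was at 348 and 254 FPKM in R and 448 and 437 FPKM in vehicle. The sum of macrophage markers, most of it Lyz2, was 11980 and 9668 FPKM in R and 19220 and 16830 FPKM in vehicle. The part of macrophage transcripts in these galectin values was not tested.

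Hgf encodes hepatocyte growth factor, secreted by mesenchymal cells as an inactive precursor. It was at 5.84 and 9.35 FPKM in R (810 and 1215 reads) and at 4.75 and 5.86 FPKM in vehicle (602 and 755 reads). The groups overlapped, since R replicate 1 lay between the vehicle values and R replicate 2 above both. For Hgf the log2 fold change was 0.42 (SE 0.222, 95% interval -0.12 to 0.97; limma, Benjamini-Hochberg adjusted p = 0.425). It was 0.72 without R replicate 1 and 0.12 without R replicate 2. The annotated transcript Gm43489 overlaps Hgf exons on the same strand and had 36 and 23 reads in R and 27 and 33 in vehicle.

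Of 5 tested genes of the hepatocyte growth factor list, limma called 0 and voom 0. At an unadjusted p under 0.05 there was 1, Met, the receptor of hepatocyte growth factor, against 16% of all tested genes. Met was at 2.42 and 3.40 FPKM in R and 1.48 and 1.76 FPKM in vehicle. Its log2 fold change of 0.57 did not pass (limma, Benjamini-Hochberg adjusted p = 0.201). Plau, the urokinase gene, was at 21.6 and 22.1 FPKM in R and 23.4 and 23.8 FPKM in vehicle.

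Tnfaip6 lay just above the limit for testing, at 1.67 and 0.776 FPKM in R (55 and 24 reads) and 0.961 and 0.978 FPKM in vehicle (29 and 30 reads). Only R replicate 1 exceeded 1 FPKM, so Tnfaip6 was tested through that library alone. R replicate 1 was above both vehicle libraries and R replicate 2 below both. The log2 fold change of 0.14 (SE 0.227, 95% interval -0.42 to 0.70; limma, Benjamini-Hochberg adjusted p = 0.813) was -0.15 without R replicate 1 and 0.44 without R replicate 2. Of 7 tested genes of hyaluronan synthesis, binding and breakdown, limma called 0 and voom 0, and the median log2 fold change was 0.09. At an unadjusted p under 0.05 there was 1, Has2, a hyaluronan synthase gene, against 16% of all tested genes. Has2 was at 0.966 and 1.14 FPKM in R and 1.94 and 1.93 FPKM in vehicle (log2 fold change -0.52, limma, Benjamini-Hochberg adjusted p = 0.168).

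The 3 amino acid enzymes were not tested. Nos2 had 0 and 9 reads in R and 6 and 1 reads in vehicle, or 0 and 0.113 FPKM in R and 0.0771 and 0.0126 FPKM in vehicle. A count of 0 in R replicate 1 allows up to 3 reads, here 0.0352 FPKM, by counting error alone. Arg1 had 0 and 3 reads in R and 1 and 0 in vehicle, and Ido1 had 3 and 0 reads in R and 1 and 0 in vehicle. The level that 3 reads stand for lay between 0.0698 and 0.0763 FPKM for Arg1 and between 0.0852 and 0.0932 FPKM for Ido1, and neither gene exceeded 3 reads in any library. For both genes a difference between the groups was not detectable at this depth, and for Nos2 the groups overlapped. Intervals and limits from reads cover counting error only.

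Genes that supply or share these substrates were measured better. Of 8 tested genes of arginine and nitric oxide metabolism 1 rose and 0 fell, with a median log2 fold change of 0.37. Over all tested genes limma called 0.345% higher and 1.37% lower. The gene that rose was Ass1, argininosuccinate synthase 1, which with argininosuccinate lyase rebuilds arginine from citrulline. It was at 14.8 and 13.1 FPKM in R and 7.30 and 7.27 FPKM in vehicle, with a log2 fold change of 0.85 (SE 0.122; limma, Benjamini-Hochberg adjusted p = 0.038). With all 4 libraries, the call was lost only without a filter (limma, adjusted p = 0.152). The log2 fold change was 0.85 without vehicle replicate 1 and 0.84 without vehicle replicate 2. Its partner Asl, the lyase, overlapped between the groups, at 10.8 and 8.10 FPKM in R and 9.53 and 9.27 FPKM in vehicle. Slc7a2, an arginine transporter, was at 6.56 and 11.5 FPKM in R and 4.86 and 5.85 FPKM in vehicle and did not pass (log2 fold change 0.62; limma, Benjamini-Hochberg adjusted p = 0.311). Arg2, the mitochondrial arginase gene, stayed at or below 0.234 FPKM in each library.

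Of 5 tested genes of tryptophan and kynurenine metabolism limma called 0, with 0 at an unadjusted p under 0.05, and voom called 0 of 4. The smallest p belonged to Cyp1b1, a target of the aryl hydrocarbon receptor that senses kynurenine, at 55.9 and 75.01 FPKM in R and 52.1 and 53.1 FPKM in vehicle (log2 fold change 0.29; limma, Benjamini-Hochberg adjusted p = 0.477). Wars, the tryptophanyl-tRNA synthetase that interferon gamma induces together with IDO1, was at 26.1 and 24.3 FPKM in R and 22.7 and 23.4 FPKM in vehicle. The related enzyme genes Ido2 and Tdo2 stayed at or below 0.228 FPKM.

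**Figure D3:**
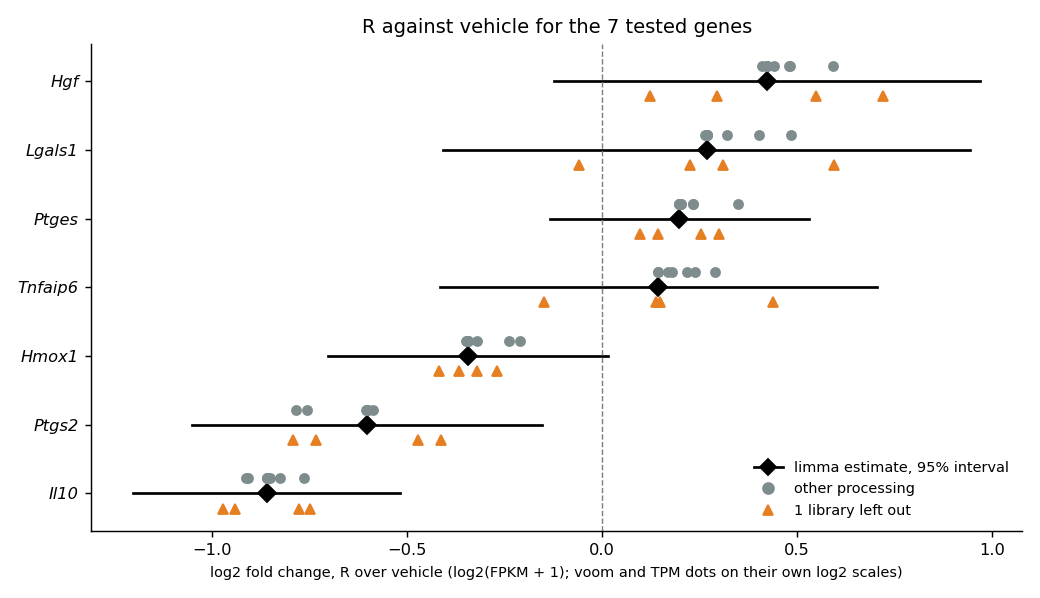
Log2 fold change of R over vehicle for the 7 tested members, with limma's 95% interval (black), other processing settings (grey dots) and fits without 1 library (orange triangles). Il10, Ptgs2 and Hmox1 stay below 0 in all settings shown, and Lgals1 and Tnfaip6 fall on both sides of 0, at -0.06 and -0.15 without R replicate 1.

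Further factors by which stromal cells restrain T cells were taken as a list of 15 genes, 13 of them tested. Of these 1 fell and 0 rose, with 5 log2 fold changes below 0, 8 above 0 and a median of 0.03. Over all tested genes limma called 1.37% lower and 0.345% higher. The gene that fell was Fgl2, which encodes a fibrinogen-like protein secreted by regulatory T cells and macrophages, at 1.04 and 1.605 FPKM in R and 4.85 and 5.86 FPKM in vehicle (log2 fold change -1.46, SE 0.176; limma, Benjamini-Hochberg adjusted p = 0.0206). Its call was lost on the TPM scale (limma, adjusted p = 0.0645) and without a filter (adjusted p = 0.176). Cd274, the gene of the checkpoint ligand PD-L1, was at 1.75 and 2.34 FPKM in R and 3.51 and 3.89 FPKM in vehicle and did not pass (limma, Benjamini-Hochberg adjusted p = 0.126). Tgfb1, encoding the T cell inhibitor TGF beta 1, was at 57.8 and 47.5 FPKM in R and 62.0 and 57.8 FPKM in vehicle. Il1rn, the interleukin 1 receptor antagonist, was at 64.3 and 58.8 FPKM in R and 54.2 and 53.4 FPKM in vehicle. Tgfb1 and Il1rn, chosen for mention after their values were seen, did not pass either, with limma's adjusted p = 0.605 for Tgfb1 and 0.539 for Il1rn.

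**Figure D4:**
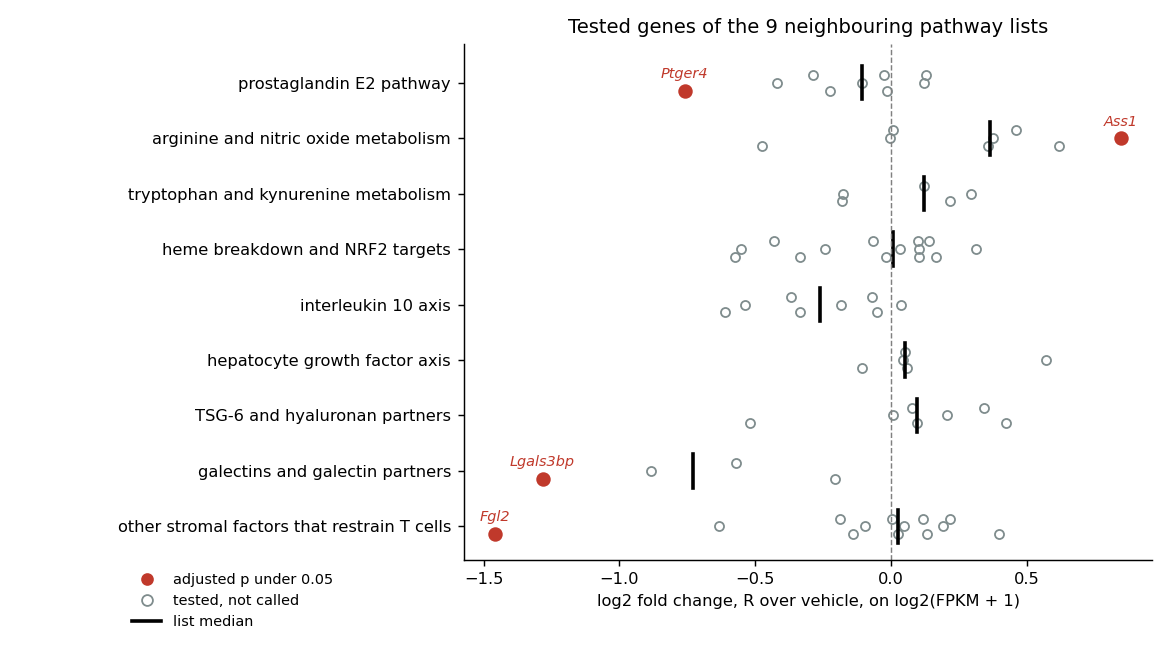
Log2 fold change of R over vehicle on log2(FPKM + 1) for the tested genes of 9 lists around the members, 1 point per gene, with filled red points for genes called at an adjusted p under 0.05 and a bar at each list's median. The called genes are Ass1 at 0.85 and, below 0, Ptger4 at -0.76, Lgals3bp at -1.28 and Fgl2 at -1.46.

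Across the 9 lists, 73 of 107 genes were tested, of which 1 rose and 3 fell, where 1.72% of all tested genes were called in either direction. Tested macrophage markers had a median log2 fold change of -0.69 in these libraries, and their part in these calls was not tested.

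In the GRCm38 annotation of GENCODE M21, Il10 (ENSMUSG00000016529) lies on chromosome 1 at 131019845 to 131024974 and Ptgs2 (ENSMUSG00000032487) on the same chromosome at 150100031 to 150108227. Hmox1 (ENSMUSG00000005413) lies on chromosome 8 at 75093621 to 75100589, Lgals1 (ENSMUSG00000068220) on chromosome 15 at 78926725 to 78930465, and Hgf (ENSMUSG00000028864) on chromosome 5 at 16553495 to 16620152. Tnfaip6 (ENSMUSG00000053475) and Ptges (ENSMUSG00000050737) lie on chromosome 2, at 52038009 to 52056686 and 30889471 to 30929863. Values are sums over the annotated exons of each gene, so isoforms are not told apart.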

How the data were processed

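Total RNA of 4 libraries was sequenced, and the authors deposited FPKM values per Ensembl gene, per the file headers. The submitters' processing notes name GRCm38, mm10 and edgeR 3.18.1 without a role. For the aligner, counter and annotation the labels give no name. GENCODE M21 gave symbols for 54495 identifiers and 37 did not match. FPKM times union exon length gave whole reads (tolerance 0.02) for 96.3 to 96.4% of values above 0, 16570419 to 18140519 reads per library.

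The main test of treatment was limma 3.58.1 (R 4.3.3) on log2(FPKM + 1), for genes averaging 1 FPKM or more, with a variance trend and Benjamini-Hochberg adjustment over 12176 genes at 0.05. Fold changes on this scale understate those of low genes. The scripts were tested on simulated libraries. Members and lists were chosen with earlier results of these data known. Named are all 10 members and, of each list, called genes or else the gene with the smallest p; a few others give context. Alternatives were another pseudocount (0.1), other filters (none, 5 FPKM), TPM, quantile normalization, no variance trend, voom on recovered reads, a replicate block, leaving out each library and, chosen after the data were seen, removal of the gene length trend (loess).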

Additional observations from a re-analysis of the deposited data

How the results depend on the processing

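Of the 7 tested members, 0 were called and this count was the same with a pseudocount of 0.1, without a filter, on the TPM scale and without a variance trend. It was 1, Il10, with a mean of at least 5 FPKM, with quantile normalization, with voom and with the length correction. The 4 called genes of the pathway lists became 0 without a filter, 8 with the length correction and 2 to 12 when 1 library was left out. Where a group was left with 1 library, it was assumed to vary like the other group. Without R replicate 1 the log2 fold changes of Tnfaip6 and Lgals1 reversed, to -0.149 and -0.0597, and without R replicate 2 they were 0.437 and 0.596. The cause of these shifts was not tested. A filter changes the number of genes adjusted for, but the unadjusted p moved with it too. For Il10 limma's unadjusted p was 0.000914 in the main fit and 0.00245 without a filter. On the TPM scale the middle tested gene sat at a log2 fold change of 0.13, so values there are shifted by that much.

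Replicate numbers come from the titles only, and same-numbered libraries deviated from their group means with a correlation of 0.353 across genes, which with 2 numbers does not pair them. With a replicate block 3 members were called, Hgf higher and Il10 and Ptgs2 lower, and 19 of 73 pathway genes, where this fit called 15.6% of all 12176 tested genes. Depth limits Nos2, Arg1 and Ido1, and 2 libraries a group limit all tests.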

Other observations

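Of the kynurenine pathway, Kmo and Kynu, enzymes downstream of IDO1 that myeloid cells express, averaged under 1 FPKM and so were outside the main test; they were chosen after their values were seen. Kmo was at 0.526 and 0.503 FPKM in R (48 and 43 reads) and at 1.20 and 1.43 FPKM in vehicle (100 and 121 reads). Kynu was at 0.0506 and 0.0719 FPKM in R (6 and 8 reads) and at 0.397 and 0.227 FPKM in vehicle (43 and 25 reads). The sum of macrophage markers, most of it Lyz2, was lower in both R libraries. For Kmo and Kynu the R values also lay below the vehicle values, as they did for 25.2% of all tested genes. In the fit without a filter neither was called, with log2 fold changes of -0.61 for Kmo and -0.30 for Kynu (limma, Benjamini-Hochberg adjusted p = 0.267 for Kmo and 0.352 for Kynu). The part of macrophage transcripts in these values was not tested.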
